A study of Leptinotarsa decemlineata with 61 samples.

Results

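The genes described here are ovary genes of the Colorado potato beetle (Leptinotarsa decemlineata) whose transcripts were still measured in laid eggs. They numbered 15 of the 15578 genes in the deposited table. A gene was taken when its mean level in ovaries was at least 20 TPM and at least 4 times its mean in each of the other 11 dissected sample groups, and when its mean in fertilized eggs was at least 25% of the ovary mean. TPM is the number of read pairs per base of a gene, scaled to the same total in every library, so a level can be set side by side between genes of different length. Without the egg limit the rule took 305 ovary genes, and the other 290 had an egg mean under 25% of the ovary mean. The name ovary gene refers to these dissected groups only, since other tissues of the beetle were not sampled separately. These 15 genes were thus chosen by their measured levels in ovaries, eggs and dissected tissues, and the comparison of those levels between sample types is a description with no test.

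Beetle ovaries of this kind are telotrophic. Nurse cells at the tip of each ovariole make RNA and pass it through cords to the growing oocytes, while follicle cells around each oocyte make the egg shell late in oogenesis. A laid egg carries maternal RNA that the oocyte received, and the embryo degrades much of it while its own genome is switched on. RNA of follicle cells is not laid with the egg, since these cells stay behind. An RNA level in a whole egg can come from the mother, from the embryo or from both, and bulk RNA-seq does not tell them apart.

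Ovaries were compared with aedeagus, genital ducts and testes of adult males, hemolymph, midgut, hindgut and fat body of last instar (L4) larvae, and midgut, hindgut, fat body and malpighian tubules of adult females and males. All beetles were wild type, of strain E06 and untreated, with no transgene. L4 larvae were dissected on day 19 from egg laying and adults 7 days after emergence, 1 individual per library, and fertilized eggs were pooled by 5 and whole L1, L2 and L3 larvae by 3. Each of these groups had 3 libraries in the comparison except that L4 fat body (white and yellow) had 3 in all, female hindgut had 2, and the adult groups of the rule joined both sexes. Of 61 libraries, 59 were used, and the 2 that the authors removed (yellow fat body replicate 4 and female hindgut replicate 5) are described separately. Adults were housed singly from emergence until dissection. The age and parents of the eggs are not stated, so the ovaries stand only for singly housed adults 7 days after emergence and not for the mothers of these eggs. The tissue field of the labels contradicts the sample titles for most libraries, and the titles were used. Libraries held 9913155 to 18579970 read pairs, and 1 pair on a gene of median length (1209 bp) was worth 0.0499 to 0.122 TPM. Fewer cells of a type and less RNA per cell cannot be told apart in any of these bulk samples.

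The deposited identifiers matched 0 of the 20134 entries of the reference gene table used here (assembly Ldec_3_MD), so the 15 genes carry no names, no function is given for them, and ovary, egg and other tissue labels could not be checked against marker genes. Positions are printed as deposited, on a chromosome-level assembly whose build name the labels and methods leave out.

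Most ovary genes were nearly absent from eggs. Over the 305 ovary genes the median egg level was 0.25% of the ovary level. The egg mean reached 1% of the ovary mean in 116 genes, 5% in 72, 10% in 51, 25% in 15, 50% in 7 and 100% in 5. Over 8639 genes above 1 TPM in both sample types the median egg level was 98.1% of the ovary level. Those genes had to be above 1 TPM in eggs, while the 305 were chosen by a high ovary level with no egg limit. The medians thus come from unlike choices of genes, and nothing is read from their difference. The median ovary mean was 51.6 TPM in the 15 genes and 137 TPM in the 290 others. Because the egg limit is a share of the ovary mean, the ovary mean itself enters this split, and nothing is read from the difference. The 15 genes ranked between 287 and 5217 among all genes by ovary mean, and together they held 0.0941% to 0.157% of the TPM of an ovary library.

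**Figure D1:**
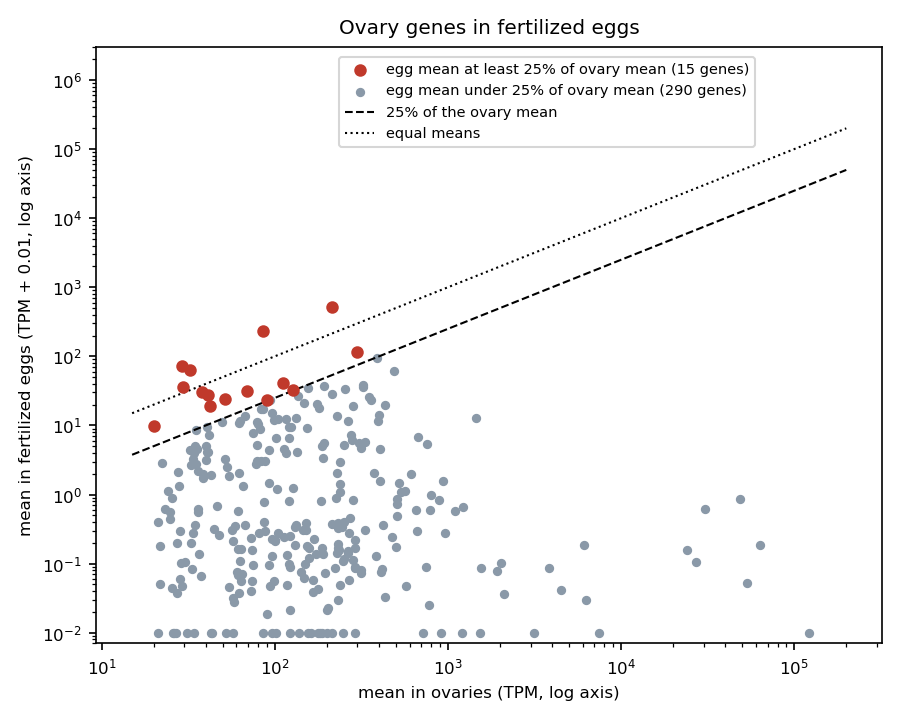
Mean level in fertilized eggs (y axis, TPM + 0.01) against mean level in ovaries (x axis, TPM) for the 305 ovary genes, both on log axes, with genes listed at 0 in eggs on the lowest line. The 15 genes at or above the dashed 25% line are in red, and 5 of them lie above the dotted line of equal means.

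In 5 of the 15 genes the egg mean exceeded the ovary mean. LdNA_5603 (chromosome 3, 6699278 to 6708797, minus strand, 2 exons, 300 bp) had 138, 327 and 227 TPM in eggs, against 43.4, 100 and 113 TPM in ovaries, so that every egg library was above every ovary library. LdNA_19491 (chromosome 9, 51230616 to 51300470, minus strand, 11 exons, 3001 bp) had 72.6, 61.8 and 79.6 TPM in eggs, against 12.8, 28.5 and 45.8 TPM in ovaries, again without overlap. These were the only 2 of the 15 genes with all eggs above all ovaries, and the same held for 28.5% of the 8639 genes above 1 TPM in both. Because the rule used these values, nothing is read from these shares.

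The other 3 genes with higher egg means were uneven between egg libraries. LdNA_16069 (chromosome 8, 2046359 to 2064619, minus strand, 8 exons, 1399 bp) had 1161, 15.3 and 371 TPM in eggs, against 117, 234 and 289 TPM in ovaries. Its egg mean of 516 ± 586 TPM (SD, n = 3) was 2.42 times the ovary mean of 213 ± 87.9 TPM, but egg replicate 2 was below all ovaries. LdNA_11019 (chromosome 5, 37725467 to 37732568, minus strand, 2 exons, 1012 bp) had 171, 1.28 and 20.6 TPM in eggs, against 19.5, 36.4 and 41.4 TPM in ovaries, and only egg replicate 1 was above the ovaries. LdNA_17335 (chromosome 8, 44379730 to 44384030, plus strand, 2 exons, 288 bp) had 60.2, 29.4 and 17.0 TPM in eggs, against 10.9, 28.5 and 48.9 TPM in ovaries, which overlap widely.

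In 4 genes every egg library was below every ovary library, as was the case for 21.9% of the same 8639 genes. LdNA_18273, the most abundant of the 15 in ovaries (chromosome 9, 8052893 to 8113673, plus strand, 14 exons, 3325 bp), had 146, 111 and 92.4 TPM in eggs, against 211, 305 and 377 TPM in ovaries. LdNA_14262 (chromosome 7, 10481787 to 10491471, plus strand, 2 exons, 261 bp) had 31.3, 27.2 and 37.6 TPM in eggs, against 184, 112 and 85.5 TPM in ovaries. With 25.2% of its ovary mean it was the gene nearest to the egg limit. LdNA_11495 (chromosome 5, 53692000 to 53762354, plus strand, 8 exons, 1853 bp) had 57.6, 10.1 and 55.8 TPM in eggs, against 130, 86.2 and 120 TPM in ovaries. LdNA_12058 (chromosome 6, 6118733 to 6128662, minus strand, 7 exons, 1263 bp) had 18.9, 29.8 and 22.2 TPM in eggs, against 51.5, 91.8 and 126 TPM in ovaries. Eggs held 36.7% of the ovary mean of LdNA_11495 and 26.4% of that of LdNA_12058.

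The remaining 6 genes had egg means of 45.4% to 79.4% of their ovary means, with overlapping libraries. LdNA_7239, the only gene of the 15 with 1 exon (chromosome 3, 59540188 to 59541771, plus strand, 1584 bp), had 23.5, 37.5 and 33.0 TPM in eggs, against 37.2, 84.3 and 85.5 TPM in ovaries. LdNA_2503 (chromosome 1, 58495791 to 58513475, plus strand, 4 exons, 3977 bp) had the most even egg levels, with 23.6, 23.2 and 26.0 TPM, against 23.7, 53.2 and 78.1 TPM in ovaries. LdNA_31413 (chromosome 16, 29219073 to 29247426, minus strand, 14 exons, 2065 bp) had 30.2, 10.5 and 17.1 TPM in eggs, against 66.2, 30.1 and 31.2 TPM in ovaries. In each of these 3 genes a single egg library reached the lowest ovary library.

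LdNA_9511 (chromosome 4, 61955343 to 61976255, plus strand, 10 exons, 1545 bp) had 23.8, 22.1 and 35.8 TPM in eggs, against 1.72, 76.2 and 45.7 TPM in ovaries. Ovary replicate 1 held 44 read pairs of this gene, against 1489 and 918 in the other ovary libraries, so its ovary level rests on 2 of 3 libraries. LdNA_18394 (chromosome 9, 12078963 to 12212570, plus strand, 2 exons, 1284 bp) had 24.6, 34.2 and 31.2 TPM in eggs, against 21.2, 40.5 and 51.6 TPM in ovaries. LdNA_7399 (chromosome 3, 63307041 to 63319038, plus strand, 5 exons, 1689 bp) had 5.70, 7.94 and 15.6 TPM in eggs, against 10.6, 19.6 and 30.2 TPM in ovaries, and was the least abundant gene in both.

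The thresholds cut through a continuous range. For the ovary limit of 20 TPM, LdNA_7399 was just inside with a mean of 20.2 TPM, followed by LdNA_19491 with 29.0 TPM and LdNA_17335 with 29.4 TPM, while LdNA_17469 (18.3 TPM), LdNA_20724 (18.0 TPM) and LdNA_12175 (14.5 TPM) were just outside. For the limit of 4 times the next group, LdNA_18394 (4.06 times), LdNA_16069 (4.58 times) and LdNA_11495 (4.73 times) were just inside, and LdNA_24917 (3.93 times), LdNA_30903 (3.83 times) and LdNA_3081 (3.64 times) just outside. For the egg limit, LdNA_14262 (25.2%), LdNA_12058 (26.4%) and LdNA_11495 (36.7%) were just inside, and LdNA_29692 (24.8%), LdNA_17793 (24.7%) and LdNA_7799 (24.3%) just outside. LdNA_20724, left out by its ovary mean alone, had an egg mean of 88.7 TPM, above that of 12 of the 15 genes.

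The dissected group with the next highest level differed between the genes. It was adult hindgut for LdNA_16069 (213 TPM in ovaries against 46.6 TPM in hindgut), LdNA_5603 (85.6 against 18.0 TPM) and LdNA_12058 (89.6 against 12.8 TPM). It was testis for LdNA_11495 (112 TPM in ovaries against 23.7 TPM in testis), LdNA_31413 (42.5 against 6.30 TPM) and LdNA_17335 (29.4 against 3.17 TPM), and L4 hindgut for LdNA_19491 (29.0 TPM in ovaries against 3.99 TPM in hindgut) and LdNA_7399 (20.2 against 4.06 TPM). For each of the other 7 genes it was a different group, from hemolymph for LdNA_18273 (298 TPM in ovaries against 34.4 TPM) to adult fat body for LdNA_14262 (127 TPM in ovaries against 3.24 TPM). On the deposited TPM values LdNA_14262 stood farthest from its next group, with a ratio of 39.3. Summed over the 15 genes, ovary libraries held 941 to 1568 TPM, egg libraries 748 to 1987 TPM and the other 44 dissected libraries 15.3 to 137 TPM.

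**Figure D2:**
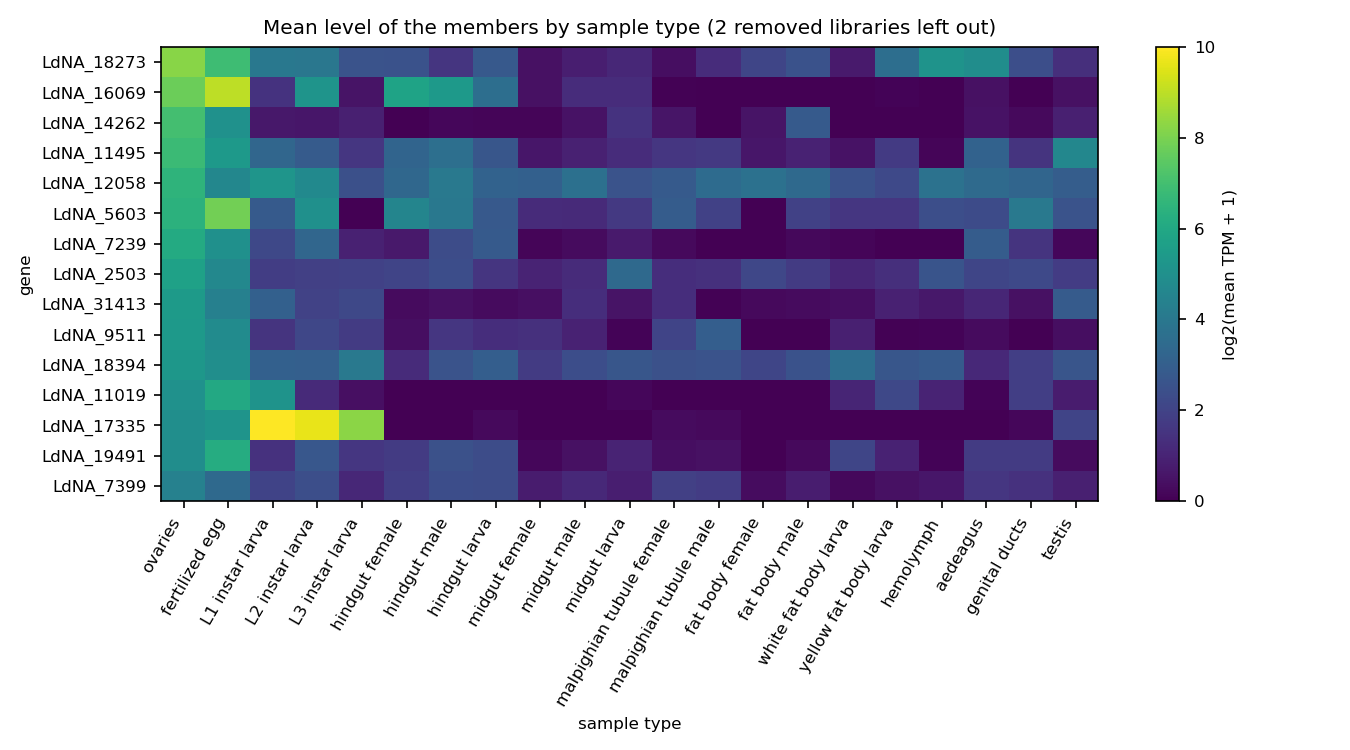
Mean level of the 15 genes (rows) in the 21 sample types (columns), as log2(mean TPM + 1), where brighter is higher and the 2 removed libraries are left out. Ovaries are brighter than every other dissected tissue in all rows, hindgut is the next brightest tissue for LdNA_16069 and LdNA_5603, and LdNA_17335 is brightest in L1, L2 and L3 larvae.

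The ovary libraries differed in composition, and most of the 15 genes were lowest in the same ovary library. The 290 ovary genes that were low in eggs took 62.0% of all TPM in ovary replicate 1, 44.2% in replicate 2 and 33.2% in replicate 4. Ovary replicate 1 was the lowest ovary library in 12 of the 15 genes and in 92.6% of the 5237 genes with an ovary mean of at least 20 TPM, and the median of replicate 4 over replicate 1 across these 5237 genes was 2.08. The exceptions were LdNA_14262 and LdNA_31413, with replicate 4 at 0.47 times replicate 1 in each, and LdNA_11495 at 0.92 times. LdNA_9511 moved farthest, with replicate 4 at 26.6 times replicate 1. After the libraries were rescaled by the median ratio of genes expressed in all of them (factors of 1.05, 1.75 and 2.08 for the ovaries and 1.39, 1.79 and 1.62 for the eggs), the rule took 7 genes, of which 5 were among the 15 (LdNA_18273, LdNA_11495, LdNA_7239, LdNA_31413 and LdNA_9511). After this rescaling the ovary mean over the highest other dissected group ranged from 1.54 in LdNA_18394, under the limit of 4, to 13.8 in LdNA_14262. With TPM recomputed without the 290 genes, the rule took more genes but not all of the 15, as given with the processing alternatives. How far the composition of the ovary sets each level was not tested beyond these recomputed values.

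The egg libraries differed widely in a few of the 15 genes. The rule used the mean of these same libraries, which a single high library can raise. The shares of all genes given here are thus descriptions, and nothing is read from them. The highest egg library was 133 times the lowest for LdNA_11019, 76.0 times for LdNA_16069 and 5.68 times for LdNA_11495. A ratio over 5 was found in 3.71% of the 7116 genes with an egg mean of at least 10 TPM, and a ratio over 50 in 98 genes (1.38%). LdNA_16069, LdNA_11019, LdNA_11495 and LdNA_31413 were all highest in egg replicate 1, lowest in replicate 2 and between them in replicate 4, an order seen in 9.61% of the 7116 genes. In 8 of the 15 genes the highest egg library was less than 2 times the lowest, and the smallest ratio was 1.12, in LdNA_2503. The median ratio over the 7116 genes was 1.37, so a ratio under 2 was common among all genes. LdNA_16069 alone made up 58.4% of the summed level of the 15 genes in egg replicate 1. The stage of the pooled eggs was not given, and its part in these differences was not tested.

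The libraries of whole larvae were not used by the rule. The rule did hold the 15 genes below their ovary level in L4 hemolymph, midgut, hindgut and fat body. The levels in younger larvae, and the tests between stages, are thus not fully independent of the rule. How far this sets the low L3 levels was not tested. In L1 larvae 14 of the 15 genes (93.3%) had a mean above 1 TPM, as did 32.4% of the 290 other ovary genes and 67.6% of all genes. The median L1 level was 12.8% of the egg level in the 15 genes, against 56.2% over the 11087 genes with an egg mean above 1 TPM and 46.4% over the 104 other ovary genes with such an egg mean. In L3 larvae the median was 4.76% of the egg level for the 15 genes and 42.0% for the 11087 genes. Because eggs chose the 15 genes by a high level, these shares are descriptions and carry no test. LdNA_17335 and LdNA_12058 were the only 2 of the 15 with an L1 mean above the egg mean.

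LdNA_17335 was higher in whole L1, L2 and L3 larvae than in any other sample type. It had 1006, 974 and 1015 TPM in L1, 810, 799 and 844 TPM in L2 and 127, 356 and 431 TPM in L3 larvae, and its L1 mean was 28.1 times its egg mean. All 9 larval libraries were above every ovary and egg library. The gene ranked 214 of all genes by its L1 mean and made up 88.5% of the summed L1 level of the 15 genes. Outside ovaries, eggs, whole larvae and the removed yellow fat body library, its highest value was 4.85 TPM, in testis replicate 2. Whole larvae hold tissues that were not dissected, and the dissected larval tissues came from L4, a later stage. Neither the site of this gene in L1, L2 and L3 larvae nor its level in whole L4 larvae was measured.

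LdNA_12058 had 36.0, 36.9 and 34.4 TPM in L1, 23.9, 27.6 and 26.6 TPM in L2 and 5.74, 2.96 and 4.46 TPM in L3 larvae. Its L1 libraries were all above its egg libraries, and its L3 libraries all below them. LdNA_11019 had 26.7, 36.0 and 41.2 TPM in L1, 0.20, 3.47 and 0.14 TPM in L2 and 0.29, 0.50 and 0.15 TPM in L3 larvae, so that L1 stood near the ovary level and the later stages near 0. LdNA_18273 had 13.8, 15.5 and 15.5 TPM in L1, 15.9, 13.9 and 13.8 TPM in L2 and 5.16, 4.50 and 4.81 TPM in L3 larvae. LdNA_18394 had 6.33 to 8.07 TPM in L1, 5.47 to 8.15 TPM in L2 and 31.2, 12.4 and 2.77 TPM in L3 larvae, where the libraries lay on both sides of the earlier stages.

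LdNA_5603 had 8.28, 5.37 and 4.78 TPM in L1 and 9.06, 67.1 and 18.6 TPM in L2, and was listed at 0 with no read pair in the 3 L3 libraries. With a floor of 3 read pairs per library, which is 0.74 TPM for this 300 bp gene, L3 was at least 42.5-fold lower than L2 and at least 8.27-fold lower than L1. Without L2 replicate 4 the L2 mean was 13.9 TPM and the bound 18.6-fold. LdNA_16069 fell to a like low level in L3, with 1.67, 1.90 and 1.63 TPM in L1, 2.14, 100 and 4.05 TPM in L2 and 0.32, 0.21 and 0.83 TPM in L3. The high L2 values of both genes came from L2 replicate 4. In this library 5 of the 15 genes (LdNA_16069, LdNA_5603, LdNA_9511, LdNA_19491 and LdNA_11019) were over 2 times both other L2 libraries, as were 4.14% of the 10524 genes with an L2 mean of at least 1 TPM.

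**Figure D3:**
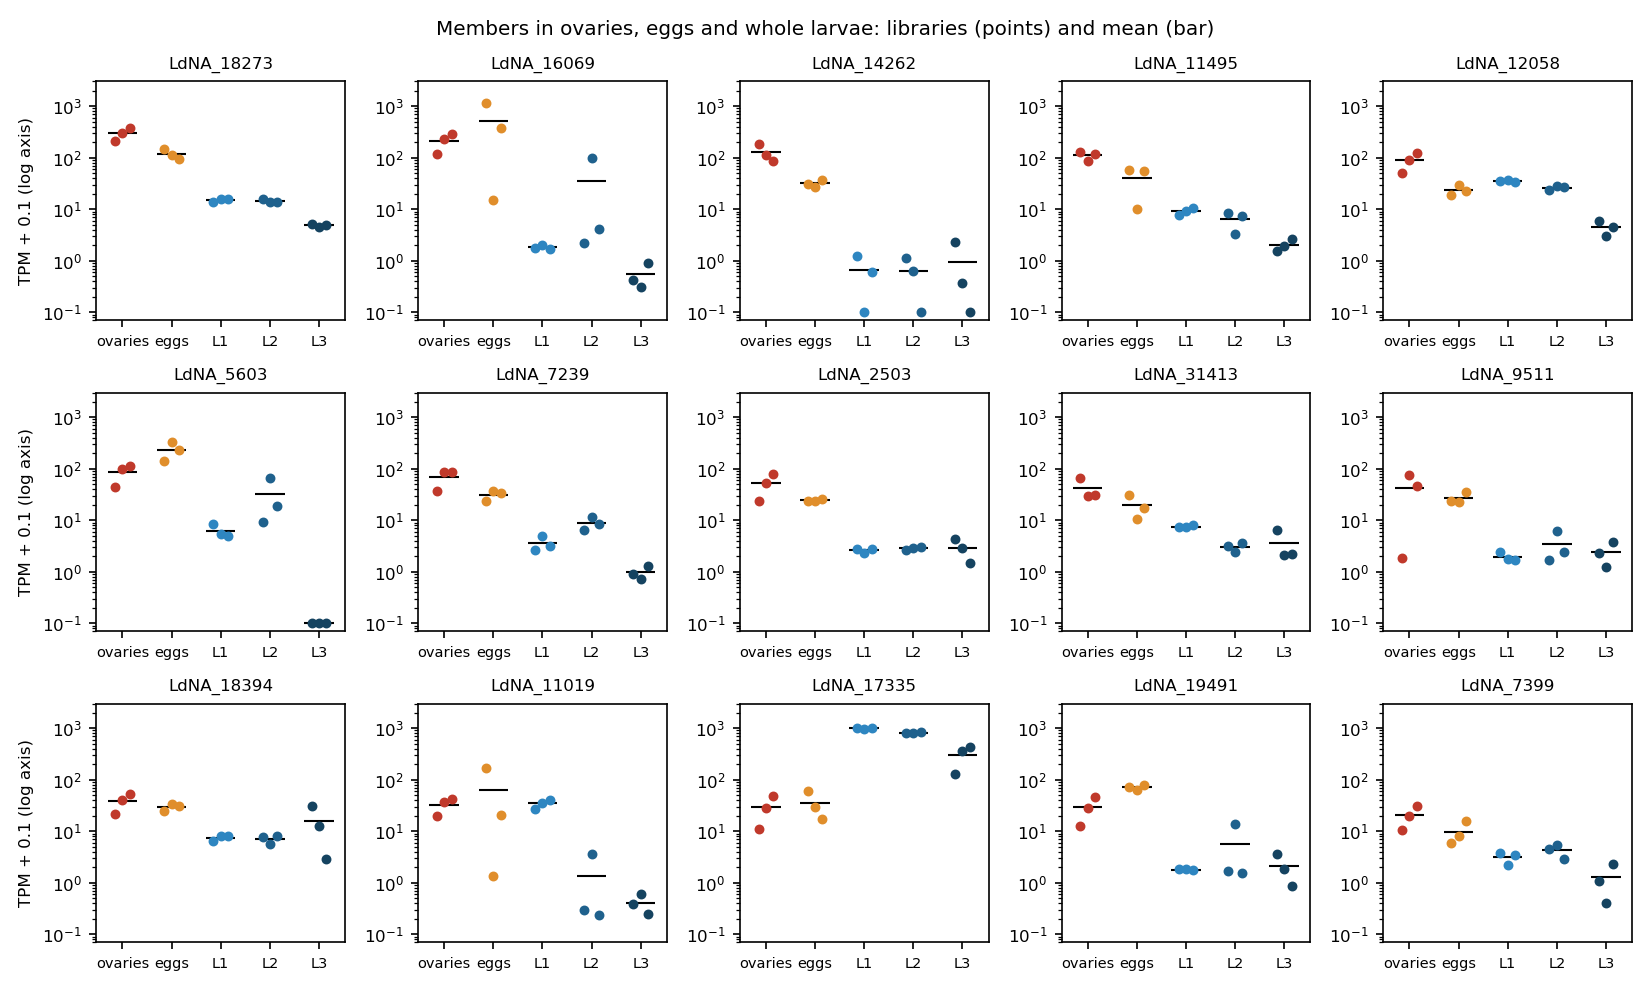
Level of each of the 15 genes (TPM + 0.1, log axis) in ovaries, fertilized eggs and whole L1, L2 and L3 larvae, with a point per library and a bar at the mean of 3. LdNA_17335 is highest in larvae, LdNA_5603 sits at 0 in L3, and LdNA_16069 and LdNA_11019 are spread widely in eggs.

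The stages were tested with limma on log2(TPM + 1) over 11409 genes in 1 fit of the 9 larval libraries, with Benjamini-Hochberg adjustment over all of them, and all 15 genes passed the filter on low values. Between L2 and L1, 2 of the 15 passed the threshold of 0.05, against 10.7% of all genes (5.06% higher and 5.68% lower). LdNA_11019 fell by 4.26 on the log2 scale in L2 relative to L1 (SE 0.49, limma adjusted p = 0.000967), and its L1 and L2 libraries did not overlap. LdNA_7239 rose by 1.13 (SE 0.26, limma adjusted p = 0.028), with 2.57, 4.78 and 3.13 TPM in L1, 6.48, 11.5 and 8.51 TPM in L2 and 0.79, 0.64 and 1.22 TPM in L3. This call was lost, with adjusted p up to 0.111, without L1 replicate 1, L1 replicate 5, L2 replicate 4 or L2 replicate 5. The median difference of the 15 genes was -0.01, against 0.10 over all genes tested.

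Between L3 and L2, 8 of the 15 genes were lower and 0 higher, against 37.3% of all genes lower and 9.11% higher. LdNA_5603 differed by -4.57 (SE 0.59, limma adjusted p = 0.000412), a fitted value that depends on the pseudocount because L3 was at 0. LdNA_16069 fell by 3.04 (SE 1.10, limma adjusted p = 0.0496), and by 1.48 without L2 replicate 4 (limma adjusted p = 0.00497). LdNA_7239 fell by 2.36 (SE 0.26, adjusted p = 0.000205) and LdNA_12058 by 2.36 (SE 0.20, adjusted p = 6.69e-05). LdNA_17335, LdNA_18273, LdNA_7399 and LdNA_11495 fell by 1.60, 1.41, 1.33 and 1.24 on the log2 scale, and LdNA_17335 by 1.06 without L3 replicate 3. The median difference was -1.24 over the 15 genes and -0.41 over all genes tested, so genes in general were lower in L3 on this scale. Rescaling by median ratios took the median of all genes to -0.01 and that of the 15 genes to -0.86, and left 4 of the 15 lower (LdNA_5603, LdNA_7239, LdNA_12058 and LdNA_18273) and 0 higher, against 20.7% of all genes lower and 21.0% higher. The call of LdNA_16069 was lost without any 1 of the L1 or L3 libraries, and that of LdNA_7399 without L2 replicate 4 or L3 replicate 4. LdNA_11019 reached the filter only through its L1 libraries. With only L2 and L3 fitted, 14 of the 15 genes were tested, and 7 were lower and 0 higher. Of all 10957 genes in that fit, 3358 were lower and 763 higher.

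**Figure D4:**
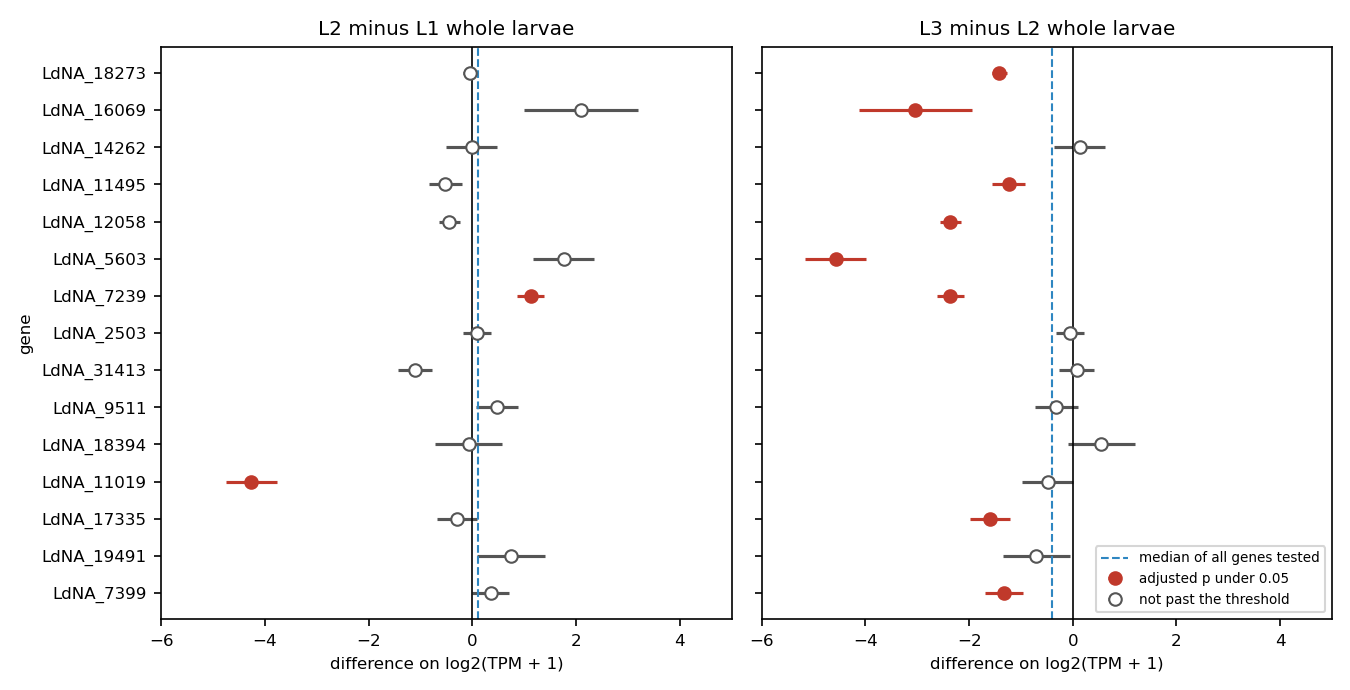
Difference of each of the 15 genes between L2 and L1 larvae (left) and between L3 and L2 larvae (right) on the log2(TPM + 1) scale, with standard errors as bars. Filled red points passed the adjusted threshold (2 on the left, 8 on the right), and the dashed line is the median over all 11409 genes tested (0.10 and -0.41).

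Between L3 and L1, 8 of the 15 genes were lower and 0 higher, against 34.8% of all genes lower and 9.75% higher. Both comparisons that include L3 share the L3 libraries. LdNA_11019 fell by 4.75 (SE 0.49, limma adjusted p = 0.000131), and LdNA_12058 by 2.80 (SE 0.20, limma adjusted p = 2.52e-05). LdNA_5603, LdNA_17335, LdNA_11495, LdNA_18273, LdNA_7239 and LdNA_31413 differed by -2.81, -1.89, -1.76, -1.45, -1.24 and -1.03. The median was -1.03 over the 15 genes and -0.33 over all genes. After rescaling the 15 genes had a median of -0.76 and all genes of -0.01, and 7 of the 15 remained lower and 0 were higher, against 23.3% of all genes lower and 21.2% higher. LdNA_31413 was the one that lost its call, and it also lost it without any 1 of the L1 libraries, L3 replicate 4 or L3 replicate 5.

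The 15 genes were also examined for differences between females and males in the 4 tissues dissected from both sexes. The rule used these tissues only through their mean over both sexes, which it held below the ovary level, so the levels compared are not independent of it although the difference between the sexes was not used. With limma, 0 of the 8 genes tested in fat body passed the threshold, against 0.0721% of all genes. In midgut 0 of 10 passed, against 0.219%, in hindgut 0 of 11, against 0.0634%, and in malpighian tubules 0 of 8, against 0.397%. At an unadjusted p under 0.05 there were 2 genes in midgut (LdNA_16069 and LdNA_18394, both with lower values in females) and 0 in each other tissue.

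Some of these genes reached the filter only through the L4 libraries in the fit, namely LdNA_11019 in fat body, where all 6 adult libraries were at 0, LdNA_11495, LdNA_14262 and LdNA_18273 in midgut, and LdNA_7239 in hindgut. With adults only, 0 of 7 genes passed in fat body, 0 of 7 in midgut and 0 of 10 in hindgut, with 0, 3 and 0 at an unadjusted p under 0.05. The median difference over all genes was -0.16 in fat body, -0.28 in midgut and 0.11 in malpighian tubules, and rescaling took it to -0.04 in fat body and nearer to 0 in the others.

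The hindgut level of LdNA_16069 was 60.4 and 50.2 TPM in the kept female libraries and 42.0, 39.4 and 40.9 TPM in males. These libraries did not overlap, but the difference of 0.43 (SE 0.23) did not pass the threshold. The removed female replicate 5 had 19.3 TPM, below every male library. The midgut level of LdNA_16069 was 0.57, 0.47 and 0.05 TPM in females and 1.32, 1.61 and 1.37 TPM in males. In a limma F test of whether the sex difference itself differed between the tissues, 1 of 12 genes passed, LdNA_16069 (limma adjusted p = 0.0407), against 0.857% of all genes. This call was lost with a pseudocount of 0.1, after rescaling and in 17 of 23 fits that left out 1 library.

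The 2 libraries that the authors removed were set beside their tissues. The yellow fat body library held 204 TPM summed over the 15 genes, against 21.0 to 31.8 TPM in the other L4 fat body libraries. There 8 of the 15 genes reached at least 5 TPM and over 2 times every other L4 fat body library, as did 19.8% of all genes. The highest were LdNA_18394 with 86.9 TPM, LdNA_12058 with 35.0 TPM and LdNA_18273 with 27.9 TPM. The other 290 ovary genes summed to 1267 TPM in this library. LdNA_16069, with 0 TPM there, and LdNA_5603, with 0.58 TPM, were not raised. In the removed female hindgut library the sum was 49.7 TPM and none of the 15 genes met this limit, as 3.61% of all genes did. Its highest levels were those of LdNA_16069 (19.3 TPM), LdNA_12058 (9.90 TPM) and LdNA_18394 (5.91 TPM).

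**Figure D5:**
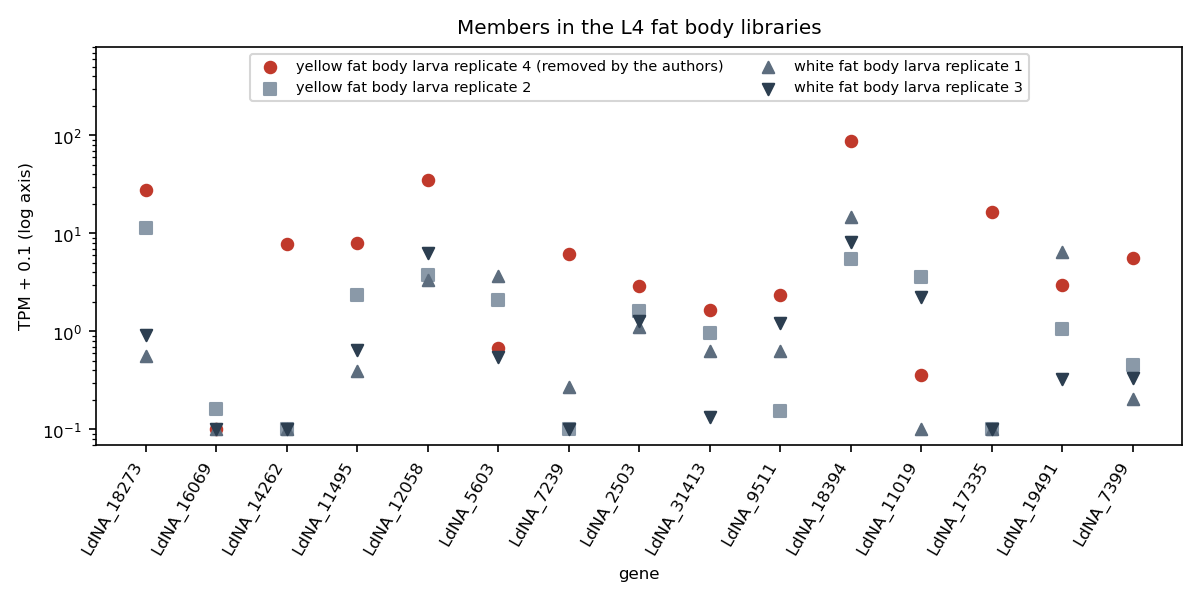
Level of the 15 genes (TPM + 0.1, log axis) in the 4 L4 fat body libraries, with the removed yellow fat body library as red circles. It lies above the 3 other libraries for LdNA_12058 (35.0 TPM), LdNA_18394 (86.9 TPM) and 6 further genes that reached at least 5 TPM.

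The 15 genes shared little in structure or position. Their median length was 1545 bp, against 1319 bp in the other 290 ovary genes and 1209 bp over all genes, and their median number of exons was 5, against 3 and 4. A single exon was found in 1 of 15 (6.67%), against 18.3% of the other ovary genes and 17.0% of all genes. They lay on 9 chromosomes, with 9 genes on the plus and 6 on the minus strand. None neighboured another in the deposited table, and of the 30 genes that flank them there 0 were ovary genes. Ovary genes were 305 of all 15578 genes, so 0 of 30 is near that share and nothing is read from it. The table leaves out genes of low level, so genes that flank each other in it need not do so in the genome. None of the 15 overlapped another gene of the table on either strand, so that counting without strand did not mix them with a gene listed there.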

How the data were processed

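RNA-seq libraries of Colorado potato beetle tissues, eggs and larvae were analysed. Per the methods and labels, mRNA was sequenced as non-directional read pairs, trimmed with Trimmomatic, aligned with STAR to a chromosome-level assembly and counted with featureCounts (Subread 2.0.5), and the authors deposited TPM values for the genes above 1 TPM in at least 2 libraries. Groups came from sample titles. No column was left unmapped (0). Gene positions, exon counts and lengths came from the deposited table. Because the file holds TPM and no counts, tests used limma 3.58.1 in R 4.3.3 (eBayes with a trend in the prior variance) on log2(TPM + 1). Genes entered when above 1 TPM in at least 2 libraries of the fit, p-values were adjusted by Benjamini-Hochberg, and the threshold was 0.05. A difference on this scale understates the change of low genes. Read pairs were recovered from TPM times length and were whole within 0.01 for all values above 0. A count test on recovered pairs was not run. In a sex comparison of midgut, hindgut or fat body, L4 libraries entered the fit as a further group.

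Of 59 replicate pairs none held identical values, and chi-square per gene was at least 14.0. The labels do not say that larval pools came from separate parents, so p-values measure only the spread between these libraries.

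The members and lists were chosen with earlier results of these data known. All 15 members are described; values in full went to the 8 with the highest ovary mean, the 6 with the highest egg to ovary ratio, the 6 highest in larvae, the 3 on each side of each threshold, the 3 highest in each removed library, and up to 4 per direction past each test. The remaining members were added after their values were seen. The list of marker genes could not be used, because the identifiers pair with no names.

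Each limma fit was tested on simulated data in which 200 genes were shifted by 2 log2 units. The 200 were drawn from genes with a mean log2(TPM + 1) above 2, all other genes had no difference, and the noise was normal. Recovery of lower genes was thus not measured. The fits gave 6 to 14 false calls each. They recovered 82%, 81.5% and 82% for L2 against L1 (11078 genes), L3 against L2 (11063) and L3 against L1 (11073), 47% for the sexes in fat body (9348), 85% in midgut (9630), 55% in hindgut (10692) and 83.5% in malpighian tubules (9115), and 54.5% for the interaction (11025). Alternatives covered the limits of the rule, pseudocount, filter, rescaling, samples in the fit, replicate block and the omission of each library. Python 3.11.15, numpy 2.4.6, pandas 2.3.3 and matplotlib 3.10.9 were used.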

Additional observations from a re-analysis of the deposited data

Results flagged for a closer look

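A single library far from the rest was looked for in 9 sets of values from the 4 adult tissues dissected from both sexes. These were the summed level of the 15 genes in each tissue and the 5 genes for which such a tissue was the next highest group. Because 1 high library can itself make a tissue the next highest group, no rate expected by chance is given. LdNA_14262 had 16.2 TPM in male fat body replicate 7, against 0 to 1.57 TPM in the other 5 adult fat body libraries, and this library makes adult fat body the next highest group of the gene. Over all genes the library also stood apart. Its chi-square per gene was 1224 against male replicate 1 and 1388 against male replicate 5, while replicates 1 and 5 gave 153. LdNA_12058 had 31.1 TPM in male hindgut replicate 4, against 6.35 to 11.4 TPM in the other 4 adult hindgut libraries.

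The sex difference of LdNA_16069 passed the test of a difference between tissues (limma F test, adjusted p = 0.0407, n = 2 or 3 libraries per sex and tissue), but not with a pseudocount of 0.1, after rescaling or in 17 of 23 fits without 1 library. It was 0.43 on the log2 scale for females minus males in hindgut and -0.86 in midgut, and the gene was at or near 0 in fat body and malpighian tubules.

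The removed yellow fat body library carried 204 TPM over the 15 genes, against 21.0 to 31.8 TPM in the other 3 L4 fat body libraries. The genes were LdNA_18273 with 27.9 TPM (0.46 to 11.2 TPM in the others), LdNA_14262 with 7.66 TPM (0 in all others), LdNA_11495 with 7.88 TPM (0.29 to 2.25 TPM) and LdNA_12058 with 35.0 TPM (3.29 to 6.22 TPM). LdNA_7239 had 6.04 TPM (0 to 0.17 TPM), LdNA_18394 86.9 TPM (5.43 to 14.5 TPM), LdNA_17335 16.6 TPM (0 in all others) and LdNA_7399 5.51 TPM (0.11 to 0.35 TPM). The removal is the authors', and the source of this RNA was not tested.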

How the results depend on the processing

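The limits of the rule set how many genes it took. It took 23 with an ovary mean of at least 10 TPM and 8 with 50, 28 at 3 times and 6 at 8 times every other group, 51 at 10% and 7 at 50% of the ovary mean, and 7 after rescaling. With TPM recomputed without the 290 other ovary genes, an alternative chosen after seeing the data, it took 46, of which 9 were among the 15. Leaving out 1 ovary or egg library gave 14 to 19, and without ovary replicate 4 9 of the 15 were among the 14.

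For L2 against L1, 1 of the 15 passed with a pseudocount of 0.1 and with the replicate block and 5 with only the 2 stages fitted, and leaving out 1 library gave 1 to 3. Over all genes 1225 passed, 395 with the replicate block, 3105 with only the 2 stages and 637 to 2150 with 1 library left out. For L3 against L2, 8 of the 15 became 4 after rescaling, 5 with the replicate block and 6 to 8 with 1 library left out, where all genes gave 4236 to 6191. For L3 against L1 it was 7 to 9 and 4004 to 6285, and over all genes 5084 passed, against 3207 with the replicate block. Same-numbered larval libraries had correlations of -0.06 to 0.04, and differently numbered ones of -0.07 to 0.09. These values cannot decide whether libraries of the same number share parents or a batch.

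In the sexes, not all of the 15 genes entered each fit, and 0 of those that did passed in any single-library omission. Over all genes, fat body had 7 calls and 5 to 328 (328 without male replicate 7). Midgut had 22, and 5 with no filter, 34 after rescaling, 8 with the replicate block, 80 with adults only and 8 to 21 with 1 library left out. Hindgut had 7, and 0 with a pseudocount of 0.1, with at least 3 libraries above 1 TPM or with adults only, 27 with no filter, 3 with female replicate 5 kept, and 0 to 53 with 1 library left out (53 without male replicate 3). Malpighian tubules had 37, 16 with no filter and 18 to 64. The interaction called 1 of the 12 genes tested, 0 with a pseudocount of 0.1 or rescaling and 0 to 1 with 1 library left out. Over all genes it called 102, 67 with a pseudocount of 0.1 and 62 to 1073 with 1 library left out (1073 without male fat body replicate 7). No paired analysis was possible in fat body because the sexes share no replicate numbers, nor in malpighian tubules because no residual degrees of freedom were left. Among 81 fitted differences of the 15 genes compared with rescaling, 2 changed sign, both from L3 against L2 and not past the threshold (LdNA_9511 from -0.32 to 0.04 and LdNA_2503 from -0.05 to 0.29). The split of calls over all genes moved more. For L2 against L1 it was 577 higher and 648 lower, and 1895 and 1210 with only the 2 stages. For L3 against L2 it was 1039 higher and 4251 lower, and 2394 and 2360 after rescaling. For L3 against L1 it was 1112 higher and 3972 lower, and 2409 and 2647 after rescaling. In females against males it was 7 higher and 0 lower in fat body, and 8 and 2 after rescaling, and 12 higher and 10 lower in midgut, and 15 and 65 with adults only. With 3 libraries a group, differences near the spread of the libraries cannot be called, and genes under about 1 TPM rest on few read pairs.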
